A study of Mus musculus with 6 samples.

Results

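The genes described here are 10 genes of the epithelial sodium channel and of the aldosterone response: Scnn1a, Scnn1b, Scnn1g, Nr3c2, Hsd11b2, Sgk1, Nedd4l, Prss8, Tsc22d3 and Usp2. They were chosen by name for their place in the pathway, with earlier results of these data known. Each was found once among the 24346 gene entries of the files. The libraries are poly(A) RNA of primary epithelial cells, taken without treatment from wild-type mice of the inbred strain C57BL/6J, from the proximal, the middle or the distal colon. Each region had 1 male and 1 female library, so n = 2 per region and 6 libraries in all, and pairs of values are given in the order male, female. Ages, the number of mice behind a library and whether 1 mouse gave several regions were not given in the sources used here. The p-values therefore reflect only how these libraries spread, and part of that spread may be technical. Levels are FPKM, fragment counts scaled to the length of the transcript and to the size of the library. Genes were tested when 2 or more libraries had 1 FPKM or more, which held for all 10 genes and for 11815 of the 24346 entries.

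Aldosterone is the adrenal steroid that makes the distal nephron and the distal colon take up sodium electrogenically. It binds the mineralocorticoid receptor (Nr3c2), which switches on target genes in the nucleus, and the limiting step of uptake is the epithelial sodium channel of the apical membrane, built from an alpha (Scnn1a), a beta (Scnn1b) and a gamma subunit (Scnn1g). Hsd11b2 inactivates corticosterone, which would otherwise occupy the receptor. Sgk1, Tsc22d3 and Usp2 are genes induced by the steroid that raise channel activity, the ubiquitin ligase Nedd4l removes the channel from the membrane, and the protease Prss8 (prostasin) activates it.

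The channel genes lie in mm10 at chromosome 6, 125320659 to 125344943 (Scnn1a), chromosome 7, 121865038 to 121918514 (Scnn1b) and chromosome 7, 121734479 to 121768475 (Scnn1g), all on the plus strand. Scnn1g and Scnn1b are neighbours, 96.6 kb apart with 0 annotated protein-coding genes between them. RefSeq promoter sequences (GRCm38.p6) were matched by symbol for 6 of the 10 genes, as 13 start sites, and the 250 bases before each start were searched on both strands for AGAACA, the core element that steroid receptors bind, and for its palindrome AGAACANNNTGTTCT, which contains the core element on each strand. Scnn1a, Hsd11b2, Nedd4l and Prss8 had no entry. The palindrome was in 3 of 32851 promoter windows of this length (0.00913%), and 1 of these 3 belonged to Sgk1, at chromosome 10, 21993701 to 21993715, as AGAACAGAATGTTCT. The core element was in 16.1% of windows. It was in 3 of the 6 Sgk1 windows and 1 of the 3 Tsc22d3 windows, and these letters are not in the windows of Scnn1b, Scnn1g, Nr3c2 or Usp2. The Sgk1 window with the palindrome and the windows of the neighbouring subunit genes are shown, because Scnn1g was the gene of the 10 that differed most between regions and Sgk1 is the classical target of the receptor. They run 5′ to 3′ on the plus strand at chr10:21993640-21993889, chr7:121734229-121734478 and chr7:121864788-121865037, with matches to the core element and the palindrome in capitals. A match of letters is a description of the sequence and does not show binding.
Sgk1: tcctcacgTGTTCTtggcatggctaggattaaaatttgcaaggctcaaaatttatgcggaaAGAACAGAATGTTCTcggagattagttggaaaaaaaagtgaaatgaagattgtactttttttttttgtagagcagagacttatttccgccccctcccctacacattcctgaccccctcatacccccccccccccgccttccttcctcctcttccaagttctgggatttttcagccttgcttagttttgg
Scnn1g: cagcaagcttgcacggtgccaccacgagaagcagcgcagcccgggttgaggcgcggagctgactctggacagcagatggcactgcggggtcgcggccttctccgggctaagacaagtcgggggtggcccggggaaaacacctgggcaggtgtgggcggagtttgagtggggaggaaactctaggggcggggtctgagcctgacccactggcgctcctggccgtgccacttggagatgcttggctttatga
Scnn1b: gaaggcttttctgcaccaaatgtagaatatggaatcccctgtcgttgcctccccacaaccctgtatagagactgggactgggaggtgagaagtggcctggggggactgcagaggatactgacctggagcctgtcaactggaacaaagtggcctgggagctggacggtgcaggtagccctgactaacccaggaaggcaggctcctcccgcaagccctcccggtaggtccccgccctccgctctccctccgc

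The 6 libraries listed totals of 546269 to 612818 FPKM, and the spacing of their lowest values placed the depth at about 7830000 to 9940000 fragments each. The epithelial markers Epcam, Cdh1, Krt8, Krt18, Krt19, Krt20 and Vil1 summed to 8147 to 9593 FPKM per library. Of these 7, limma called 0 between distal and proximal colon, and 5 were fitted higher and 2 lower distally. At a limma unadjusted p under 0.05, 3 of the 7 passed (29.2% of all genes). Krt20 went from 694 and 851 FPKM in the proximal to 388 and 247 in the distal libraries. Vil1 went from 362 and 344 to 286 and 256, and Cdh1 from 232 and 301 to 356 and 370. Lymphocyte markers (9 of 10 found) summed to 31.2 and 13.2 FPKM in the proximal, 4.93 and 8.01 in the middle and 2.77 and 2.83 in the distal libraries, and Cd79a, Cd79b, Cd2 and Jchain were under 1 FPKM in every library. The sums were 2.03 to 9.33 FPKM for 7 macrophage and dendritic cell markers, 2.15 to 5.19 for 8 fibroblast, muscle and vessel markers and 0.361 to 1.54 for 5 neuron and glia markers. Markers of enteroendocrine, tuft and goblet cells (6 genes, among them the mucin gene Muc2) summed to 1878 and 1654 FPKM in the proximal, 2571 and 1808 in the middle and 639 and 746 in the distal libraries. Of the goblet markers, Muc2 went from 1607 and 1373 FPKM in the proximal to 323 and 275 in the distal libraries, and Fcgbp rose from 128 and 219 to 295 and 439 (difference of log2(FPKM + 1) 1.10, limma adjusted p = 0.0073). The part of these cells in the results below was not tested, and fewer cells of a type and less RNA per cell cannot be told apart in bulk samples.

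The 3 subunits of the channel had different levels and different courses along the colon. Scnn1a was the most abundant of the 3 in all 6 libraries, and its FPKM was higher in the middle and distal than in the proximal colon. Scnn1g was near the lower limit of the values in the proximal colon and rose distally. Scnn1b ranged from 3.35 to 12.2 FPKM and was highest in the distal library of both sexes. With limma, 1 of the 10 genes was called between distal and proximal colon, Scnn1g, at a Benjamini-Hochberg adjusted p under 0.05 (14.1% of all genes tested were called).

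Scnn1g, the gamma subunit, was at 0.452 and 0.202 FPKM in the proximal colon. It was at 0.956 and 2.16 FPKM in the middle libraries. In the distal libraries it was at 3.73 and 12.3 FPKM. Each distal library was above both middle ones and each middle library above both proximal ones, and the female distal library was the highest by far. The gene reached 1 FPKM in both distal libraries and the female middle one, and in neither proximal library. It therefore entered the test only through libraries where it was high. The proximal values correspond to only about 10 and 5 fragments, and the distal ones to about 81 and 342, by the estimated depths and the annotated transcript of 2991 bases. Mean FPKM went from 0.327 ± 0.176 through 1.56 ± 0.853 to 8.02 ± 6.07 (SD, n = 2 each), so that the distal mean was 24.5 times the proximal one. All further differences are on the scale of log2(FPKM + 1), which understates changes of genes near 1 FPKM or lower. Distal minus proximal was 2.59 for Scnn1g (SE 0.41, limma adjusted p = 0.016), and with a pseudocount of 0.1 in place of 1 it was 4.08 (limma adjusted p = 0.017). Without a filter on low values the difference was also 2.59, just under the threshold (limma adjusted p = 0.0485). Without the female distal library the difference was 1.94 and no longer called (limma adjusted p = 0.062). Distal minus middle was 1.67 (limma adjusted p = 0.19) and middle minus proximal 0.91 (limma adjusted p = 0.33). Leaving out either proximal library kept distal minus middle at 1.67, since proximal values do not enter this difference. It changed only the estimate of the spread and the genes tested, so it adds no support for Scnn1g.

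Scnn1a, the alpha subunit, was at 25.4 and 53.7 FPKM in the proximal libraries. It was at 89.1 and 89.5 FPKM in the middle and at 101 and 79.6 in the distal libraries. Both proximal libraries were therefore below all 4 others, while middle and distal overlapped. Distal minus proximal was 1.26 (95% interval 0.45 to 2.06, limma adjusted p = 0.061), middle minus proximal 1.25 (0.44 to 2.06, limma adjusted p = 0.12) and distal minus middle 0.01 (-0.80 to 0.81, limma adjusted p = 0.996). The proximal libraries lay farther apart than the pair of either other region. Without the male proximal library distal minus proximal was 0.65, and without the female one it was 1.86. Middle minus proximal without the female proximal library was also 1.86. A fit without 1 proximal library leaves the distance between the 2 proximal libraries out of the spread. Its calls therefore add no support, and only the differences are given here and for the genes below.

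Scnn1b, the beta subunit, was at 4.69 and 4.19 FPKM in the proximal libraries. It was at 3.35 and 5.65 FPKM in the middle and at 5.62 and 12.2 in the distal libraries. Distal was above proximal without overlap, but the male distal value lay just below the female middle one. The distal minus proximal difference was 0.78 (95% interval 0.10 to 1.46, limma adjusted p = 0.13), distal minus middle 0.80 (limma adjusted p = 0.33) and middle minus proximal -0.01 (limma adjusted p = 0.99). Without the male proximal library distal minus proximal was 1.25. The gene overlaps Cog7, a gene for a Golgi complex subunit on the opposite strand, but 0 exon bases are shared in the annotation.

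Since FPKM is scaled to length, the subunits can be set against each other within a library. Scnn1g was 9.64% and 4.83% of Scnn1b in the proximal libraries, 28.5% and 38.2% in the middle and 66.3% and 101% in the distal ones. The female distal library thus held both at about the same level, and in each sex the ratio had the same order of regions. Scnn1b was 3.76% to 18.4% of Scnn1a and did not follow the regions in this way. Scnn1g was 1.78% and 0.377% of Scnn1a in the proximal and 3.69% and 15.5% in the distal libraries, with the middle male library lowest of its sex at 1.07%. These ratios were not tested, and the proximal ratios of Scnn1g rest on only about 10 and 5 fragments of that gene.

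**Figure D1:**
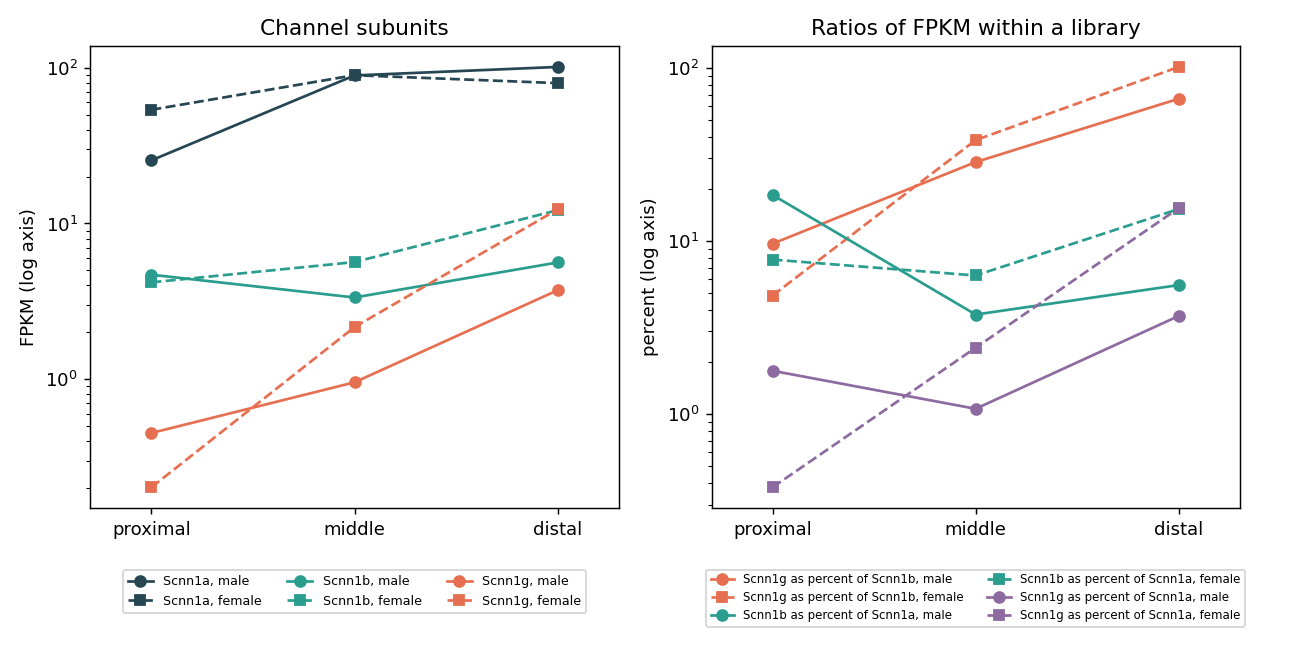
Left, FPKM of the 3 channel subunits on a log axis in the 3 regions, with circles and solid lines for male and squares and dashed lines for female libraries; right, ratios of the subunits within each library in percent on a log axis. Scnn1a lies above the other subunits in all 6 libraries. Scnn1g goes from 9.64% and 4.83% of Scnn1b in the proximal to 66.3% and 101% in the distal libraries. The proximal Scnn1g values rest on only about 10 and 5 fragments.

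The receptor gene and the enzyme that guards it were highest in the distal colon, by small amounts that did not pass the threshold. Nr3c2, the mineralocorticoid receptor (chromosome 8, 76899442 to 77245012), was at 29.4 FPKM in both proximal libraries. It was at 32.3 and 37.4 FPKM in the middle and at 43.8 and 39.5 in the distal libraries. The 3 regions did not overlap. The distal minus proximal difference was 0.49 (95% interval 0.19 to 0.78, limma adjusted p = 0.053), and the steps from proximal to middle and from middle to distal were 0.23 and 0.25 (limma adjusted p = 0.39 and 0.47). An annotated noncoding gene on the opposite strand, Gm10649, shares 3.82% of the exon bases of Nr3c2 and was listed at 0.0952 FPKM or less.

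Hsd11b2 (chromosome 8, 105518755 to 105523988) was the most abundant of the 10 genes by mean FPKM, above 97.6% of the genes tested. It was at 200.2 and 299 FPKM in the proximal, 302 and 352 in the middle and 341 and 395 in the distal libraries. The female library was the higher in each region, and both sexes had the order proximal, middle, distal. From proximal to distal the difference was 0.58 (95% interval 0.23 to 0.93, limma adjusted p = 0.0504), just above the threshold of 0.05. It was 0.58 and called with median-ratio scaling (limma adjusted p = 0.0496), and 0.76 without the female proximal library. Hsd11b2 stood at 6.80 to 10.2 times the FPKM of Nr3c2 in the 6 libraries, with no order of regions common to both sexes.

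The steroid-induced regulators did not share 1 course. Sgk1, the kinase that phosphorylates Nedd4l and so keeps the channel at the membrane (chromosome 10, 21882184 to 21999903), was at 267 and 169 FPKM in the proximal libraries. It was at 156 and 123 FPKM in the middle and at 183 and 188 in the distal libraries. The middle colon was lowest in both sexes, the distal libraries lay close together, and the male proximal library was the highest. Distal minus proximal was -0.20 (95% interval -0.64 to 0.25, limma adjusted p = 0.53) and middle minus proximal -0.61 (95% interval -1.06 to -0.17, limma adjusted p = 0.15). Without the female proximal library middle minus proximal was -0.87. FPKM is given per gene, so the use of the Sgk1 start with the palindrome was not analysed here.

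Usp2, a deubiquitylating enzyme that acts against Nedd4l (chromosome 9, 44067021 to 44095627), was at 37.5 and 19.5 FPKM in the proximal, 17.0 and 20.5 in the middle and 27.3 and 27.6 in the distal libraries. The distal libraries were above the middle ones without overlap. The male proximal library was above all 5 others, and the female proximal library lay between the middle ones. Distal minus middle was 0.53 (limma adjusted p = 0.52) and distal minus proximal 0.02 (95% interval -0.68 to 0.72, limma adjusted p = 0.97). Without the female proximal library distal minus proximal was -0.50, and middle minus proximal went from -0.52 (limma adjusted p = 0.42) to -1.04. Annotated genes on the opposite strand share 4.15% of its exon bases.

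Tsc22d3, a leucine zipper protein also known as Gilz (chromosome X, 140539528 to 140600659), was at 36.4 and 61.2 FPKM in the proximal libraries. It was at 57.6 and 60.2 FPKM in the middle and at 76.6 and 70.1 in the distal libraries. Both distal libraries were above all 4 others, and the male proximal library was the lowest. From proximal to distal the difference was 0.62 (95% interval 0.09 to 1.16, limma adjusted p = 0.12). Without the female proximal library it was 1.01, and middle minus proximal went from 0.31 (limma adjusted p = 0.53) to 0.70. Lymphocytes also express Tsc22d3. The lymphocyte marker sum was 31.2 and 13.2 FPKM in the proximal and 2.77 and 2.83 in the distal libraries, and its part in the values of Tsc22d3 was not tested.

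The ligase and the protease genes varied little, by 1.58 and 1.52 times between the lowest and the highest library. Nedd4l (chromosome 18) was at 19.7 and 17.8 FPKM in the proximal, 18.4 and 12.5 in the middle and 15.6 and 13.2 in the distal libraries. It was the only gene of the 10 that was lower in both distal than in both proximal libraries. Distal minus proximal was -0.36 (95% interval -0.69 to -0.03, limma adjusted p = 0.14). Prss8 (chromosome 7, 127925716 to 127930104) was at 33.3 and 37.6 FPKM in the proximal, 40.5 and 47.8 in the middle and 35.9 and 31.4 in the distal libraries. It was highest in the middle colon in both sexes, and distal and proximal libraries overlapped. Middle minus proximal was 0.31 (limma adjusted p = 0.31), distal minus middle -0.38 (limma adjusted p = 0.34) and distal minus proximal -0.07 (95% interval -0.40 to 0.26, limma adjusted p = 0.77). Prss8 shares 6.59% of its exon bases with Kat8, which is on the opposite strand and was at 9.20 to 11.5 FPKM.

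**Figure D2:**
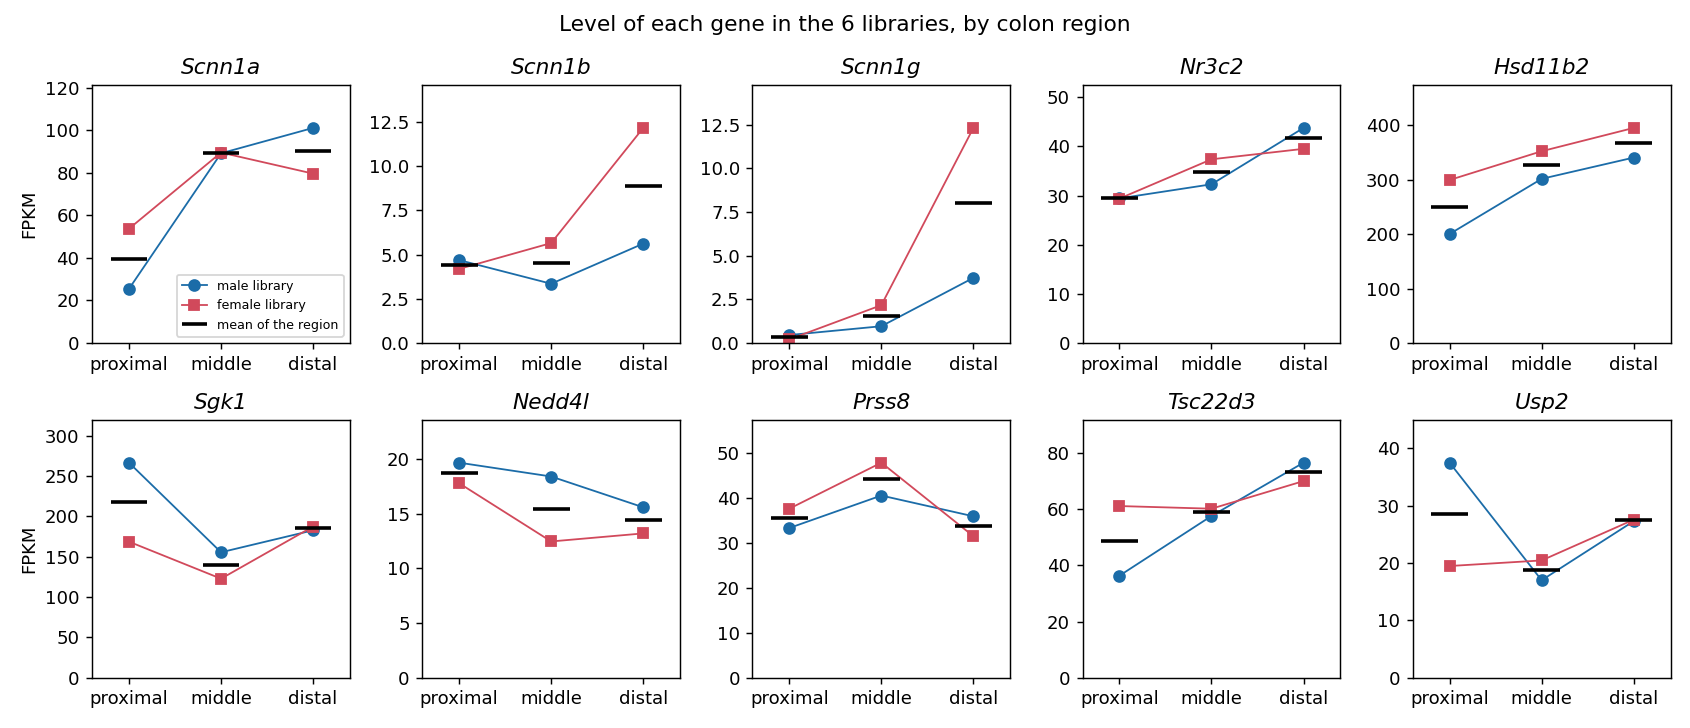
FPKM of each of the 10 genes in the proximal, middle and distal colon, with circles for the male and squares for the female library of a region and black bars for the mean of both; lines join the libraries of a sex and each axis starts at 0. Scnn1g and Scnn1b are highest in the female distal library, and the male proximal library is lowest for Scnn1a and Tsc22d3 and highest for Sgk1 and Usp2.

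Across the 10 genes, 6 were higher in both distal than in both proximal libraries (Scnn1a, Scnn1b, Scnn1g, Nr3c2, Hsd11b2 and Tsc22d3) and 1 was lower, against 30.8% and 29.5% of all genes tested. The median distal minus proximal difference was 0.53 over the 10 genes and 0.01 over all genes tested. At an unadjusted p under 0.05, 7 of the 10 genes passed (29.2% of all genes). In middle against proximal colon 5 genes were higher without overlap and 1 was lower (21.6% and 22.2% of all genes), and limma called 0 of the 10 (2.45% of all genes were called) and had 3 at an unadjusted p under 0.05 (18.3%). In distal against middle colon 5 were higher and 1 was lower (20.5% and 19.1% of all genes), and limma called 0 of the 10 (0.499% of all genes) and had 3 at an unadjusted p under 0.05 (12.7%). Without the female distal library Scnn1g was no longer called between distal and proximal colon. Fits without 1 proximal library called more of the 10 genes in this comparison. They leave the distance between the proximal libraries out of the spread, so these calls add no support. The 3 comparisons share libraries, so they are not separate evidence. The 10 genes were chosen with earlier results of these data known, so the counts beside the shares of all genes are descriptions.

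**Figure D3:**
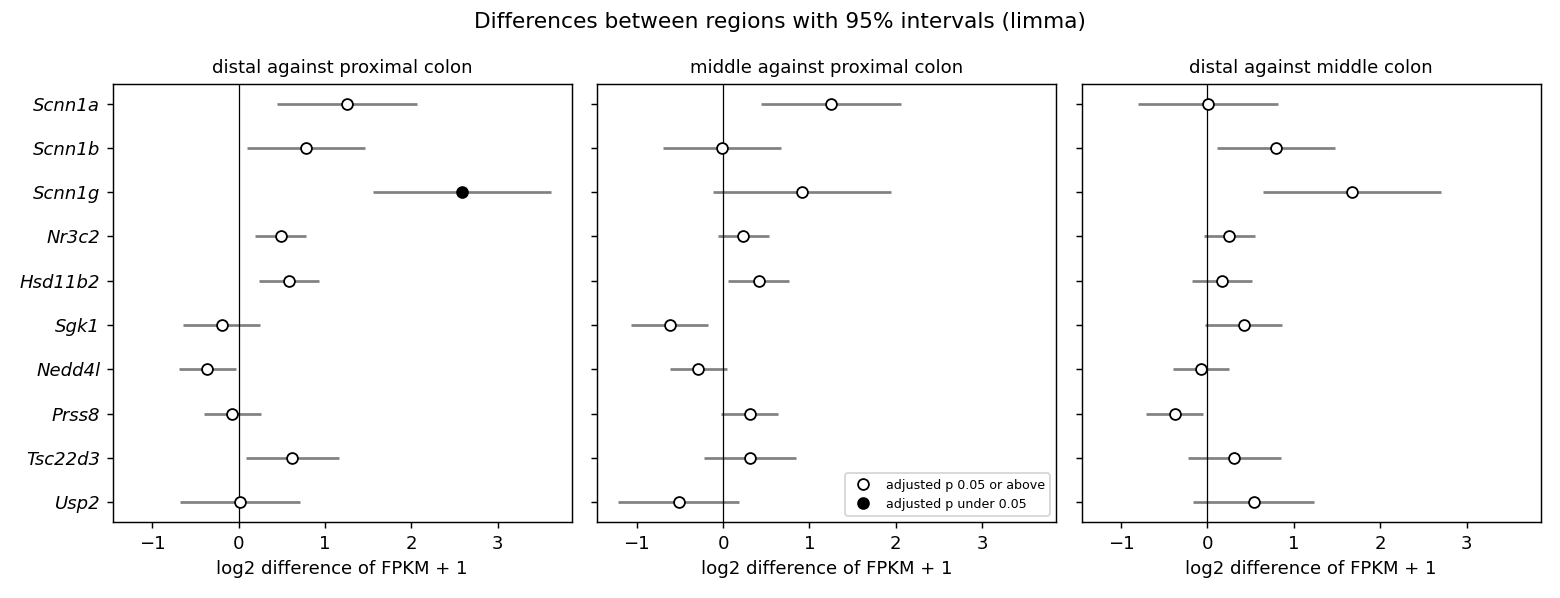
Differences of log2(FPKM + 1) between regions for the 10 genes in the 3 comparisons, with 95% intervals from limma; filled circles have an adjusted p under 0.05. Scnn1g between distal and proximal colon, at 2.59, is the only filled circle, and the Scnn1a difference is 1.26 and 1.25 against the proximal and 0.01 against the middle colon.

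Between the sexes, which have 3 libraries each, 1 per region, limma called 0 of the 10 genes (0.0423% of all genes were called) and had 2 at an unadjusted p under 0.05 (10.6% of all genes). These were Hsd11b2, at a female minus male difference of 0.34 (limma adjusted p = 0.45), and Nedd4l, at -0.30 (limma adjusted p = 0.45). Hsd11b2 was higher and Nedd4l lower in the female library in 3 of 3 regions. Scnn1g and Scnn1b were lower in the female than in the male proximal library and higher in the female middle and distal libraries, with differences of 0.64 and 0.49 over all regions (limma adjusted p = 0.54 and 0.49).

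The glucocorticoid receptor gene Nr3c1 ran opposite to Nr3c2. It was at 24.7 and 20.7 FPKM in the proximal, 16.5 and 13.8 in the middle and 11.1 and 12.1 in the distal libraries, and fell by 0.91 from proximal to distal (limma adjusted p = 0.013). Per library, Nr3c1 was 0.839 and 0.706 times the FPKM of Nr3c2 in the proximal, 0.512 and 0.368 times in the middle and 0.254 and 0.307 times in the distal colon. Over all genes tested, 6.47% were called higher and 7.64% lower in distal than in proximal colon. In the list of steroid receptors, their chaperones and steroid enzymes, 0 of 8 genes tested rose and 3 fell. Besides Nr3c1 these were Fkbp5, a co-chaperone of both receptors that glucocorticoids induce, at -0.80 (limma adjusted p = 0.039), and H6pd, which makes the cofactor of Hsd11b1, at -0.73 (limma adjusted p = 0.017). The coactivator Ncoa1 was at 0.43 (limma adjusted p = 0.12). Lymphocyte markers also summed lower distally, at 31.2 and 13.2 FPKM in the proximal and 2.77 and 2.83 in the distal libraries. Their part in the values of Nr3c1 and Fkbp5 was not tested. Hsd11b1, which regenerates active corticosterone, was at 0.32 FPKM or less in every library and was not tested.

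Among 7 genes for proteases that can cleave the channel and for their inhibitors, 1 rose and 1 fell distally. Of all genes tested, 6.47% were called higher and 7.64% lower. Tmprss2, a membrane serine protease, was at 86.3 and 153 FPKM in the proximal, 223 and 236 in the middle and 288 and 323 in the distal libraries (difference 1.40, limma adjusted p = 0.012). Serpine2, an inhibitor of Prss8, fell by 1.03 (limma adjusted p = 0.044) from only 1.28 and 1.09 FPKM in the proximal libraries, to 0.137 in the male and a listed 0 in the female distal library. It reached 1 FPKM in the proximal libraries only, so it entered the test through the region where it was high, and its count among the genes that fell is no support for a change of the list. Spint1 and Tmprss4 were at 0.23 each (limma adjusted p = 0.21 and 0.23). Of 16 kinase and ubiquitin regulators tested, 1 rose and 1 fell, beside the same 6.47% and 7.64% of all genes. Sgk2, a relative of Sgk1, was at 50.9 and 29.2 FPKM in the proximal, 37.8 and 16.1 in the middle and 22.2 and 9.81 in the distal libraries, and fell by 1.32 (limma adjusted p = 0.0049). Ywhab, a 14-3-3 protein that binds phosphorylated Nedd4l, rose by 0.63 (limma adjusted p = 0.017). Wnk4 and Cnksr3 were at -0.77 and -0.52 (limma adjusted p = 0.076 and 0.11).

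A further list held 9 genes for pumps, channels and a pump regulator, drawn up around electrogenic transport. Of these, 2 rose and 1 fell, beside 6.47% and 7.64% of all genes tested. The sodium pump regulator Fxyd4 was at 0 and 1.92 FPKM in the proximal, 0.720 and 122 in the middle and 197 and 605 in the distal libraries. The proton-potassium pump Atp12a was at 0.0999 and 2.98 FPKM in the proximal, 23.1 and 125 in the middle and 237 and 231 in the distal libraries. In the middle colon both were higher in the female library, as was Scnn1g. Cftr, the chloride channel of secretion, fell by 0.63 (limma adjusted p = 0.024), and Atp1b1, the beta subunit of the sodium pump, was at 0.45 (limma adjusted p = 0.0997). Of 4 genes of electroneutral sodium absorption tested, 0 rose and 1 fell, the sodium-proton exchanger Slc9a2, at -0.65 (limma adjusted p = 0.034). Slc26a3, Slc9a3r1 and Slc9a3 were at 0.80, -0.43 and -1.33 (limma adjusted p = 0.0525, 0.084 and 0.19).

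In a list of 10 genes that glucocorticoids induce, 5 rose and 1 fell distally, against 6.47% and 7.64% of all genes tested. The list was chosen with earlier results of these data known, so this count is a description. Fkbp5, which glucocorticoids also induce, is counted among the receptors and chaperones and fell by 0.80 (limma adjusted p = 0.039). Zbtb16, a zinc finger factor, was at 0.813 and 1.12 FPKM in the proximal and at 7.87 and 6.60 in the distal libraries (difference 2.07, limma adjusted p = 0.0095). Ddit4, an inhibitor of mTOR signalling, rose by 0.77 (limma adjusted p = 0.0087) and the transcription factor gene Klf9 by 0.66 (limma adjusted p = 0.012). Cebpd and Per1, named after their values were seen, rose by 1.32 and 0.53 (limma adjusted p = 0.021 and 0.039). The metallothionein gene Mt2 fell by 1.15 (limma adjusted p = 0.0088). The medians were 0.40 for this list, -0.16 for receptors and chaperones, 0.11 for proteases and 0.00317 for kinases and ubiquitin regulators. They were 0.08 for the list around electrogenic transport and -0.54 for electroneutral absorption, beside 0.01 for all genes tested. Of the 17 genes of these lists that were called, 3 were still called without the male distal library (Sgk2, Atp12a and Mt2) and 8 without the female distal library, all 17 in the same direction in both cases. Over all genes, the 1668 calls became 334 without the male and 779 without the female distal library. Leaving sex out of the model ended the calls of Sgk2, Fxyd4, Mt2 and Fkbp5, and testing without a filter on low values those of Fkbp5, Slc9a2, Cebpd and Per1. Without a variance trend Fkbp5, Slc9a2 and Per1 were lost, and with a pseudocount of 0.1 or quantile normalization Serpine2.

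**Figure D4:**
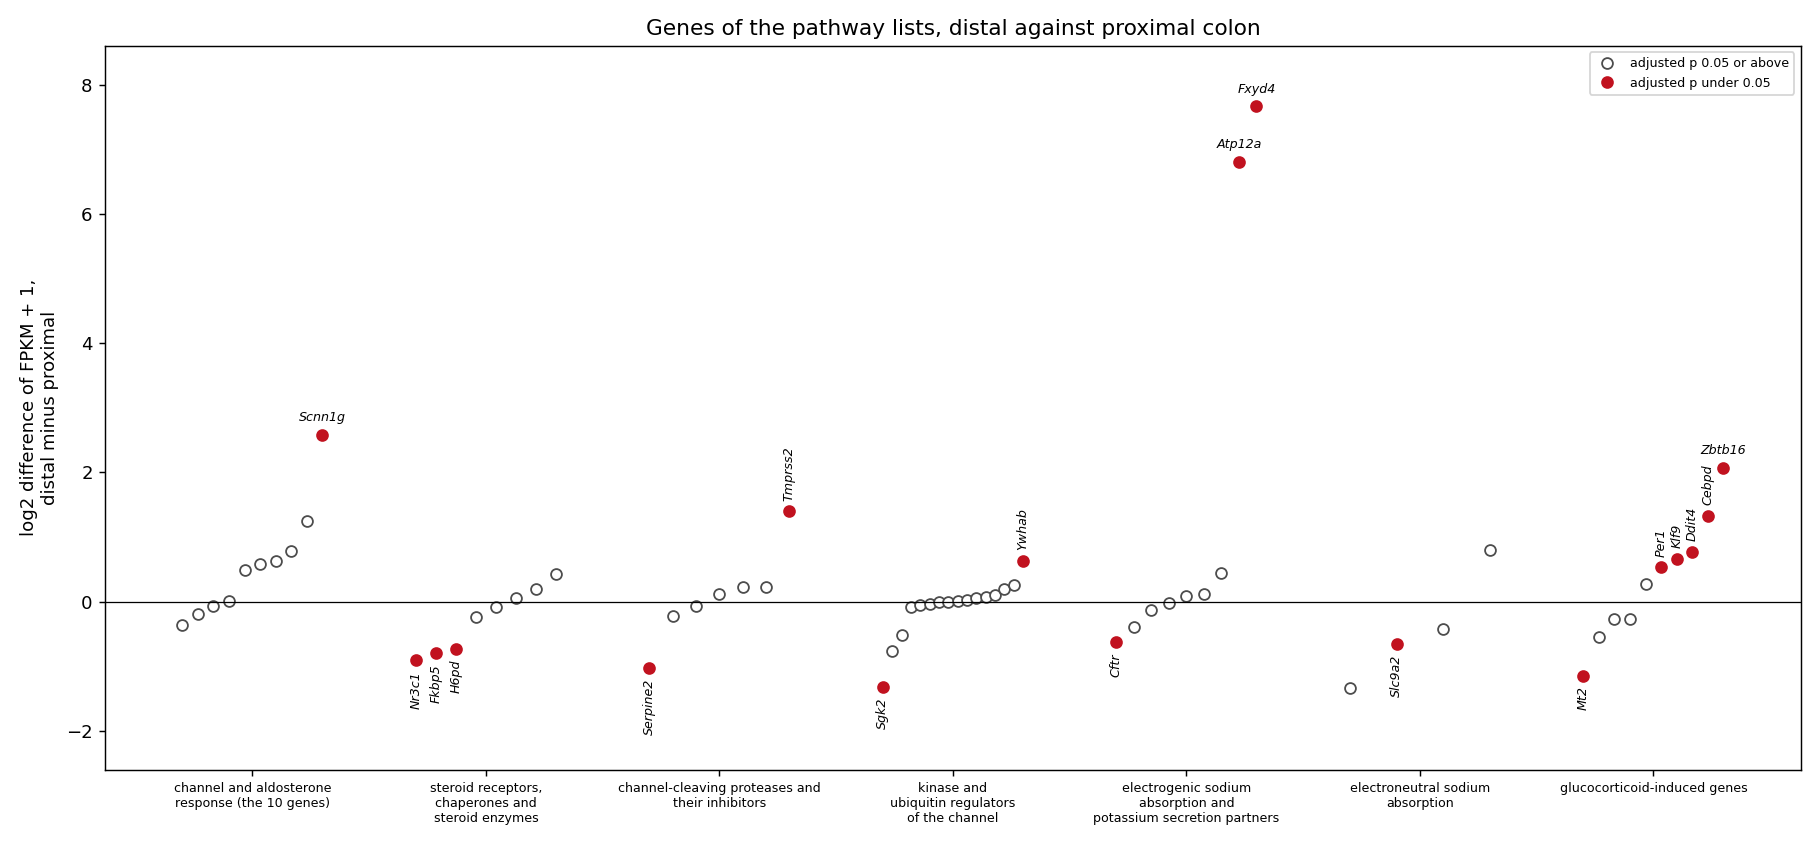
Difference of log2(FPKM + 1), distal minus proximal, for each tested gene of the 10 described here and of 6 pathway lists, sorted within a list; filled red circles have a limma adjusted p under 0.05 and carry the gene symbol. Fxyd4 and Atp12a lie highest. In the list of glucocorticoid-induced genes 5 rose and 1, Mt2, fell, and the called genes among receptors and chaperones, with Fkbp5 among them, fell.

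The genes with the profile most like Scnn1g over the 6 libraries were sought among 8647 other genes with a mean of at least 5 FPKM, by the root mean square difference of log2(FPKM + 1) centred on each gene's mean. The 5 nearest were Gsdmc3, a gasdermin with close relatives that can exchange reads (0.29), the folate transporter Slc46a1 (0.33), the amino acid transporter Slc6a20a (0.43), the peroxiredoxin Prdx6 (0.44) and the glycosyltransferase B4galnt3 (0.45). Like Scnn1g they were higher in the distal than in the proximal libraries, which the choice by likeness makes likely. Gsdmc3 was at 34.4 and 31.9 FPKM in the proximal, 43.7 and 87.9 in the middle and 126 and 207 in the distal libraries. For Scnn1b the nearest were Lrrc19 (0.14), the iron exporter Slc40a1 (0.19), Trp53inp1 (0.198), the diamine oxidase Aoc1 (0.199) and the ubiquitin ligase Rnf149 (0.21). The scale of log2(FPKM + 1) understates the change of Scnn1g, which was under 1 FPKM in the proximal libraries. A gene with a smaller ratio of FPKM between regions can therefore lie near it. Scnn1g itself had a mean of 3.30 FPKM, below the limit set for the other genes. These likenesses rest on 6 libraries and are descriptions with no test.

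**Figure D5:**
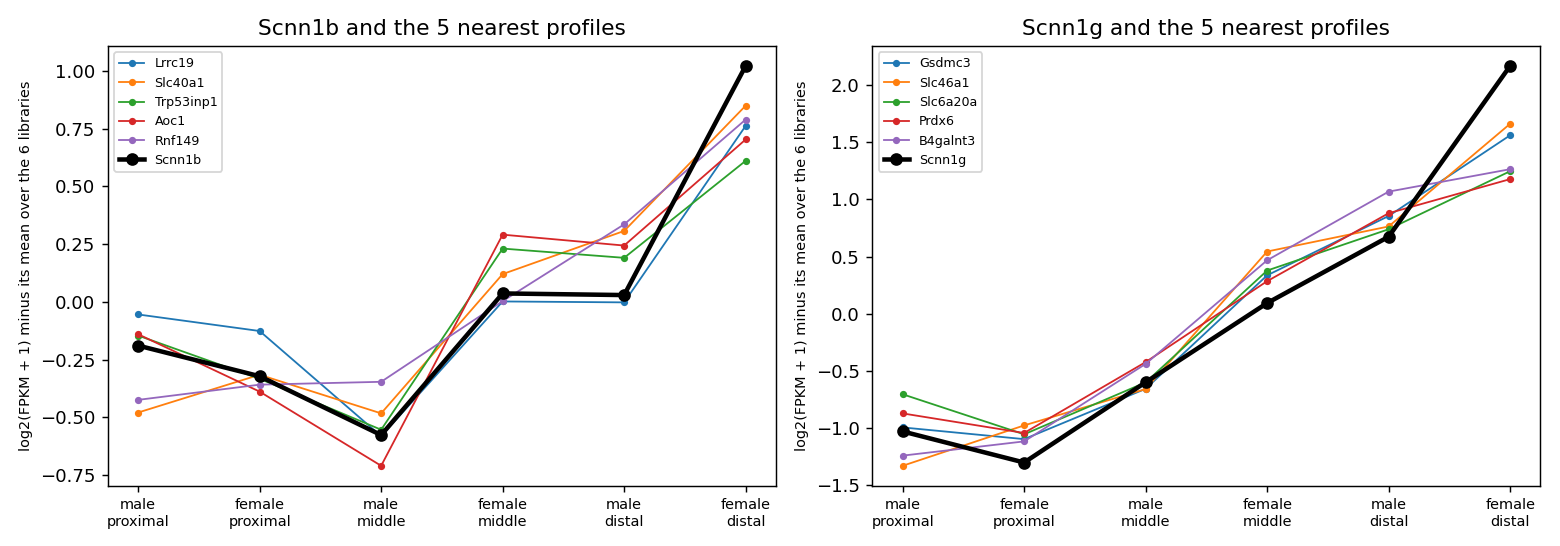
log2(FPKM + 1) minus its mean over the 6 libraries for Scnn1b and Scnn1g (thick black lines) and the 5 genes with the nearest profiles (thin lines), by library. The Scnn1g profile lies highest in the female distal library, above those of its 5 nearest genes, and the Scnn1b profile is lowest in the male middle library.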

How the data were processed

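The 6 libraries are stranded poly(A) RNA-seq of colon epithelial cells, from RNA isolated with a kit made for low input, per the labels' protocols. The deposited values are FPKM for each gene. The submitters' processing notes name TopHat2 2.1.1, Bowtie2 2.2.8, Cuffdiff 2.2.1 and SAMtools 0.1.18 with mm10. Settings, annotation and the handling of strand were not given in the sources used here, so reads of overlapping antisense genes may not be separated.

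Tests used log2(FPKM + 1) of the 11815 genes at 1 FPKM or more in at least 2 libraries. limma 3.58.1 (R 4.3.3) fitted region and sex over all 6 libraries with a variance trend (2 residual and 3.49 prior degrees of freedom), with Benjamini-Hochberg adjustment over all genes tested and a threshold of 0.05. A region by sex term leaves 0 degrees of freedom and was not fitted. The fit was also run on simulated data with known changes. These were independent normal values with the spreads of the fit itself and no sex effect, so that run cannot vouch for the calls in the real libraries. Depth was estimated from the spacing of values under 0.2 FPKM in genes with 1 transcript over 1500 bases, for an assumed fragment of 200 bases, and is approximate. Positions are from GENCODE M21 (mm10).

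All 10 genes are named, with up to 4 genes of each pathway list (those called in distal against proximal colon first, then by p). The genes and lists were chosen with earlier results of these data known.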

Additional observations from a re-analysis of the deposited data

Results flagged for a closer look

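For 7 of the 10 genes the male and the female libraries differed in opposite directions in at least 1 comparison of regions, or in 8 cases over the 3 comparisons. With 1 library per sex and region these differences between the sexes were not tested. All values are differences of log2(FPKM + 1). Between distal and proximal colon, Sgk1 was at -0.54 in the male and 0.15 in the female libraries, Usp2 at -0.44 and 0.48, and Prss8 at 0.11 and -0.25. Between middle and proximal colon, Usp2 was at -1.10 in the male and 0.067 in the female libraries, Scnn1b at -0.39 and 0.36, and Tsc22d3 at 0.65 and -0.022. Between distal and middle colon, Scnn1a was at 0.18 in the male and -0.17 in the female libraries, and Nedd4l at -0.23 and 0.077. Over all genes tested, opposite or tied directions were seen for 28.7%, 40.3% and 39.1% in these 3 comparisons, against 3, 3 and 2 of the 10 genes.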

How the results depend on the processing

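Direction and call of the 10 genes were recomputed with a pseudocount of 0.1, without a filter, with a minimum of 5 FPKM, with quantile normalization or median-ratio scaling, without a variance trend, without sex (or region) in the model, and without each library in turn, where the lone library of a region is assumed to vary like the others. The distal against proximal count of 1 called gene was 2 with median-ratio scaling, which added Hsd11b2, and 0 with a minimum of 5 FPKM, where Scnn1g was not tested. It was 0 to 4 without 1 library, beside 0 to 4 for middle against proximal and 0 to 1 for distal against middle colon. The calls over all genes were 334 to 1518 without 1 library for distal against proximal colon, 0 to 777 for middle against proximal and 0 to 426 for distal against middle colon, against 1668, 289 and 59 with all libraries. The last 2 counts were 4 and 2 without a filter, 187 and 29 without a variance trend, and 24 and 17 with sex left out. Signs changed only for differences that were called neither with all libraries nor where the sign changed. With quantile normalization, Scnn1a distal minus middle was -0.019 and Scnn1b middle minus proximal 0.0016. Without 1 library, distal minus middle was -0.43 to 0.44 for Scnn1a and -0.25 to 0.099 for Nedd4l. Distal minus proximal was -0.27 to 0.12 for Prss8, -0.46 to 0.072 for Sgk1 and -0.50 to 0.54 for Usp2. Middle minus proximal was -0.48 to 0.45 for Scnn1b, -0.070 to 0.70 for Tsc22d3 and -1.04 to 0.0070 for Usp2. Female minus male was -0.073 to 0.10 for Nr3c2, -0.0071 to 0.20 for Prss8, -0.17 to 0.53 for Scnn1a, -0.032 to 0.40 for Tsc22d3 and -0.45 to 0.13 for Usp2. The labels carry no replicate numbers, and sex, which matches libraries across regions, is a term of the model, so the fit with sex left out is the unmatched one. It called the same 1 gene of the 10, Scnn1g, between distal and proximal colon. The cause of these shifts was not tested. With about 5 to 10 fragments of Scnn1g in the proximal libraries, its level there is known only roughly.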
